A study of Petromyzon marinus with 12 samples.

Results

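The 104 sea lamprey genes described here encode proteins that shorten the poly(A) tail of messenger RNA, remove its cap, degrade it, tag it or hold it untranslated. They were chosen by symbol out of the 22407 gene models of the count table. The symbols are those that the deposited annotation gives by match to human proteins. Identity to the human protein was 30.2% to 98.9%, with a median of 62.25%, and a symbol is less certain where it is low. Among the lowest were TUT4 at 30.2%, DCP1B at 31.3% and PATL1 at 32.0%. The rule used no measured value, but the genes were chosen with earlier results of these data known. By role they were 15 deadenylases and adaptors (CNOT, PAN2, PAN3, PARN, BTG and TOB1), 23 genes of decapping and decay from the 5′ end (DCP, EDC, DDX6, PATL1, LSM and XRN), 12 of the RNA exosome (EXOSC) and 10 of nonsense-mediated decay (UPF and SMG). The others were 4 terminal uridylyltransferases and LIN28 genes, 17 binders of sequence elements (such as ZFP36L1, PUM2, CELF and ELAVL), 8 genes of cytoplasmic polyadenylation and tail binding (CPEB, MSI2 and PABPC1), 10 readers of RNA methylation (YTHD and IGF2BP) and 5 of the small RNA pathway (DICER1, DROSHA and AGO). Roles were assigned by symbol prefix alone. The decapping group thus takes in every LSM gene and the nuclear exonuclease XRN2, and not all its genes need act in decapping. The genes carried 81 symbols, and 14 of these symbols were shared by 37 gene models, which are told apart here by the model number (for example PM14443). They lay on 62 chromosome or scaffold sequences, with at most 5 on any one. Of 56 symbols known for clearing or holding maternal messenger RNA, 37 were carried by at least 1 of the genes, and BTG4, CNOT7, CNOT8 and ZFP36L2 were among the 19 not analysed here.

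An animal egg is loaded with messenger RNA made by the mother, much of it stored with short poly(A) tails or bound by proteins that hold back its translation. When the embryo switches on its own genome, these transcripts are cleared: the CCR4-NOT complex, PAN2-PAN3 and PARN shorten the tail, DCP1 and DCP2 remove the cap with the help of EDC, PATL1, LSM and DDX6 proteins, XRN1 degrades the body from the 5′ end and the exosome from the 3′ end. Adaptors such as BTG, TOB, ZFP36, PUM2, YTHDF2 and AGO proteins direct these enzymes to their targets, while CPEB and PABPC proteins act on tail length and translation. All roles given here are background from other animals (human, mouse, frog, zebrafish and fly) and were not measured in the lamprey.

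RNA sequencing of whole embryos was used to compare knockouts of 2 histone methyltransferases with wildtype in a species that eliminates part of its genome during development. The 6 groups were KMT1 knockout, KMT5A knockout and wildtype embryos at day 3 and the same genotypes at day 2, with 2 biological replicates each. Per the labels, all embryos were raised at 18 °C, Cas9 protein loaded with guide RNAs was injected together with a fluorescent dextran, and the embryos were screened for fluorescence at 24 hours after fertilization. Libraries were made from pools of about 100 embryos, and the knockouts are injected embryos rather than an established mutant line. The labels leave unstated if wildtype embryos received an injection, and if the pools had different parents. The p-values therefore measure only the spread between these pools, and in whole embryos fewer cells of a type and less RNA per cell cannot be told apart. KMT1 enzymes methylate histone H3 at lysine 9, and KMT5A methylates histone H4 at lysine 20.

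The deposited values were estimated counts per gene, with totals of 61886305 to 81131801 per library at day 3 and 71641822 to 89061394 at day 2. Levels are given below as CPM, the count scaled to the size of its library, and every log2 fold change, standard error (SE) and adjusted p comes from edgeR's quasi-likelihood test over all 15615 genes that passed the filter on low counts, with a gene called at an adjusted p under 0.05. KMT5A was at 74.5 to 84.6 CPM in day 3 KMT5A knockouts, against 197 to 208 CPM in wildtype (log2 fold change -1.35, SE 0.068, adjusted p = 6.25e-05), while at day 2 it was at 367 to 382 CPM against 373 to 389 CPM (-0.02, SE 0.066, adjusted p = 1). SUV39H2, taken here as the KMT1 gene by its name, was at 32.7 to 36.8 CPM in day 3 KMT1 knockouts and 51.6 to 56.1 CPM in wildtype (-0.63, SE 0.088, adjusted p = 0.00624), and at 145 to 151 CPM against 119 to 120 CPM at day 2 (0.31, SE 0.087, adjusted p = 0.0677). At day 2 neither target gene's RNA was called as lower in its own knockout, and RNA level alone does not report an edit of the gene. The day 3 falls were not confined to the target genes. On chromosome 21, that of KMT5A, 29.5% of genes tested were called as lower in day 3 KMT5A knockouts, beside 1.97% of all genes. On chromosome 14, that of SUV39H2, 18.8% were called as lower in day 3 KMT1 knockouts, beside 1.59% of all genes. The cause was not tested. A single gene held 3.72% of all counts in 1 library of day 3 KMT1 knockouts (replicate 2) and 7.82% in 1 library of day 3 KMT5A knockouts (replicate 1), when in the remaining 10 libraries the top gene held 1.01% to 1.32%. The replicates of these groups also differed more, by a median of 0.150 and 0.167 on the log2 scale, against 0.0752 to 0.0927 in the other 4 groups. Of the ectoderm, mesoderm, endoderm and germ cell markers looked up, SOX2, TFAP2A, TBXT, GSC, SOX17, FOXA1, FOXA2, DDX4 and PIWIL1 were above 0 in wildtype, the muscle gene MYH1 was listed at 0 and ACTC1 reached at most 74 counts.

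Of the 104 genes, 92 were above 0 in all 12 libraries, 100 passed the filter, and 3 were listed at 0 throughout (CELF2 PM04884, UPF3B PM24561 and YTHDC2 PM03716). LSM14B PM03322 was near 0 and was not tested. Per kilobase of exon, the most abundant transcripts of wildtype embryos at day 3 were PABPC1 PM09906 at 507 CPM per kilobase, EXOSC1 PM08848 at 275 and PABPC1 PM12443 at 229. At day 2 the translational repressor PUM2 (PM09136) at 169.5 and the nuclear exonuclease XRN2 (PM20933) at 112 were among the most abundant. A poly(A) binding protein therefore headed the order at day 3 and PUM2 at day 2.

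Wildtype embryos changed most of this machinery between the days. At day 3 relative to day 2, 85 of the 100 tested genes were called, 53 higher and 32 lower, when 66.1% of all genes tested were called, 29.0% higher and 37.0% lower. The median log2 fold change was 0.47 over the 100 genes and -0.32 over all genes tested. With the sign left aside, the median size was 1.13 over the 100 genes and 1.45 over all genes tested. KMT1 knockouts had 53 higher and 32 lower (64.4% of all genes called) and KMT5A knockouts 52 higher and 33 lower (66.1% of all genes called). With library size as the sole scaling the median of all genes moved to -0.63 in wildtype, and the split was 41 higher and 34 lower in wildtype, 38 and 40 in KMT1 knockouts and 36 and 43 in KMT5A knockouts. The directions below are signs on the TMM scale and not relative to the median of all genes. PUM2 (-0.17) and ZFP36L1 PM06804 (-0.23) were called as lower although they lay above that median.

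**Figure D1:**
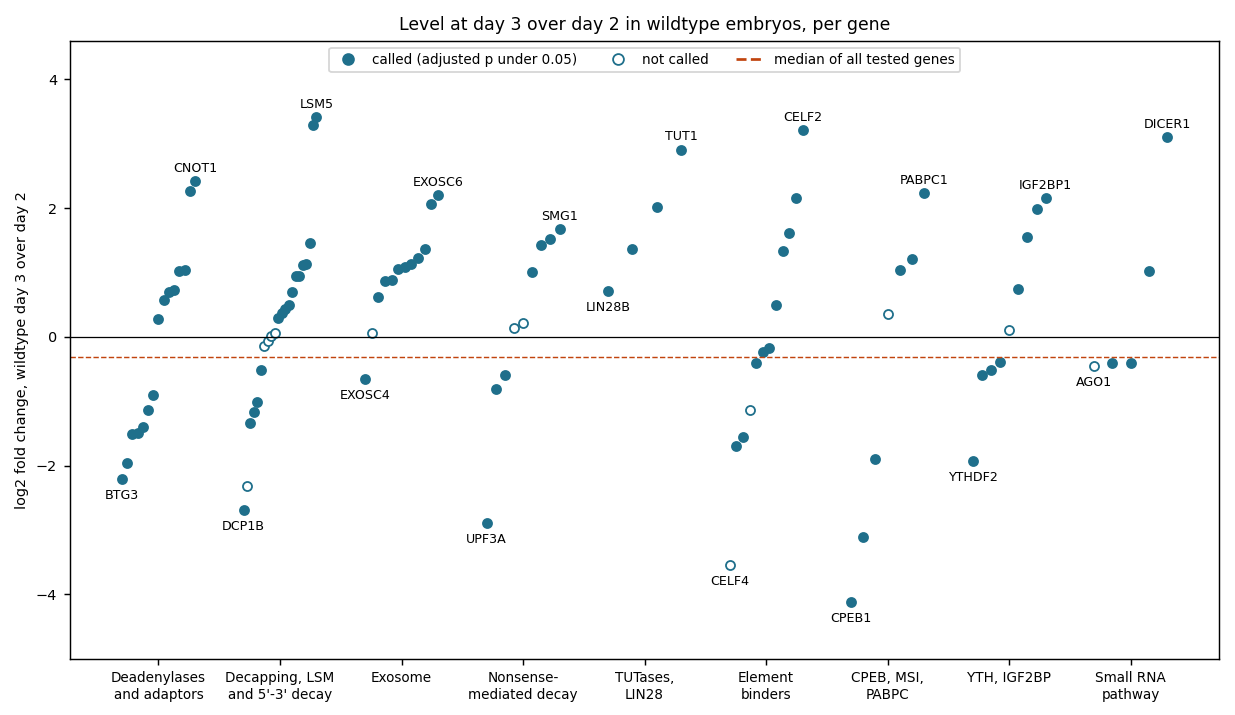
Log2 fold change of wildtype day 3 over wildtype day 2 (y axis) for each tested gene with counts in both groups, arranged by role (x axis) and sorted within a role, with filled points for called genes, open points for genes not called and a dashed line at the median of all tested genes (-0.32). The exosome and uridylyltransferase genes sit almost wholly above 0, whereas the deadenylases and the CPEB, MSI2 and PABPC1 genes spread to both sides.

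The deadenylases and adaptors went both ways, also within the CCR4-NOT complex. All 15 were called, 8 higher and 7 lower at day 3, and 5 and 7 with library size as the sole scaling. Of all genes tested 66.1% were called, 29.0% higher and 37.0% lower. CNOT1 (PM13257, chromosome 25, 13108012 to 13140476, plus strand), the scaffold of the CCR4-NOT complex, had 884 and 855 CPM at day 3 and 165 and 159 CPM at day 2, a log2 fold change of 2.42 (SE 0.073, adjusted p = 4.76e-08). CNOT9 (PM05724), the subunit through which several adaptors bind, had 27.7 and 25.8 CPM at day 3 and 5.66 and 5.52 CPM at day 2 (2.26, SE 0.14). Both genes were far higher at day 3, with no overlap between the days. In contrast the catalytic deadenylase CNOT6L (PM18083, chromosome 41, 10655743 to 10723268, minus strand) fell to 191 and 190.1 CPM at day 3, against 532 and 554 CPM at day 2 (-1.51, SE 0.052, adjusted p = 9.09e-08). PAN3, the RNA-binding partner of the PAN2 nuclease, had 123 and 119 CPM at day 3 and 470.3 and 472 CPM at day 2 (-1.96, SE 0.1). CNOT3, CNOT4 and PAN2 fell as well, by 1.40, 1.49 and 0.91 on the log2 scale. The CCR4-NOT subunits CNOT2, CNOT10 and CNOT11 rose, by 0.70, 1.04 and 0.57. BTG3, an antiproliferative adaptor of the CCR4-NOT nucleases, was at 2.74 and 2.43 CPM at day 3 and 13.1 and 10.8 CPM at day 2 (-2.21, SE 0.41), and its relative TOB1 went the other way, with 140.2 and 138 CPM at day 3 and 70.6 and 66.0 CPM at day 2 (1.02, SE 0.042). PARN, a poly(A)-specific ribonuclease, was 0.27 (SE 0.051), a small rise that turned to -0.04 with library size as the sole scaling.

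Among 22 tested genes of decapping and decay from the 5′ end, 12 were higher and 5 lower, and 7 and 6 with library size as the sole scaling. The share called was 77.3% (54.5% higher and 22.7% lower), beside 66.1% of all genes tested (29.0% higher and 37.0% lower). DCP1B (PM16409), a cofactor of the decapping enzyme, fell to 25.2 and 24.3 CPM at day 3, against 158 and 162 CPM at day 2 (-2.69, SE 0.11, adjusted p = 2.13e-07). XRN1 (PM13084), the 5′ to 3′ exonuclease of the cytoplasm, fell to 201 and 185 CPM at day 3, against 422 and 445 CPM at day 2 (-1.17, SE 0.064). The decapping enzyme DCP2 was also lower (-1.02), whereas LSM5 and LSM6, subunits of the ring that binds shortened tails, had the largest rises among called genes with counts at both days (3.41 and 3.29). LSM6 had 59.7 and 56.9 CPM at day 3 and 6.05 and 5.84 CPM at day 2. XRN1 and LSM5 overlap a gene model on the opposite strand, and without a stated strand setting reads of the 2 models cannot be told apart. The helicase DDX6 did not pass the test (564 and 564 CPM at day 3, 598 and 579.9 CPM at day 2). EDC4, a scaffold of decapping, was 0.29 and turned to -0.02 with library size as the sole scaling.

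Most exosome genes rose. Of the 12 tested genes 10 were higher and 1 (EXOSC4, -0.65) was lower, with a median log2 fold change of 1.07, and 10 and 1 were also counted with library size as the sole scaling. EXOSC6 had 34.6 and 42.0 CPM at day 3 and 9.20 and 7.45 CPM at day 2 (2.2, SE 0.17). EXOSC2 had 142 and 145 CPM at day 3 and 34.8 and 33.8 CPM at day 2 (2.06, SE 0.05). The 3 EXOSC10 models lie close together on chromosome 5 (PM06253, PM06255 and PM06256) and may share reads, so their values are uncertain one by one. All 4 uridylyltransferase and LIN28 genes were higher, 2 of them also called with library size as the sole scaling. TUT1 rose by 2.91, TUT7 by 2.01, TUT4 by 1.36 and LIN28B, which binds let-7 precursors, by 0.71. TUT1 overlaps 1 and TUT7 overlaps 2 gene models on the other strand, and their reads cannot be told apart without a stated strand setting. TUT4 and TUT7 add uridines to shortened tails, and both lie on sequences outside the placed chromosomes. Of 9 nonsense-mediated decay genes 4 were higher (SMG1, SMG8, UPF1 and UPF2, 1.01 to 1.67) and 3 lower (UPF3A -2.89, SMG5 -0.81 and SMG9 -0.59). Called higher and lower were 83.3% and 8.33% of exosome genes and 44.4% and 33.3% of nonsense-mediated decay genes. Over all genes tested these shares were 29.0% and 37.0%.

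Among called genes with counts at both days, a CPEB1 and a PABPC1 model had the largest falls. CPEB1 (PM02432, chromosome 1, 33987437 to 34007257, plus strand), which holds stored messages with short tails in oocytes and later promotes their polyadenylation, fell to 7.21 and 6.0 CPM at day 3, against 116 and 113 CPM at day 2 (-4.12, SE 0.22, adjusted p = 1.07e-06, 17.3-fold lower). The second CPEB1 model, PM20837, fell by 1.9. CPEB4 (PM00119) was listed at 0 in every day 3 library of the 3 genotypes. At day 2 it had 163 and 79 counts in wildtype and 83 to 159 counts in the knockouts. Both CPEB1 models were thus lower at day 3, CPEB3 did not pass the test, and the 0s of CPEB4 can be failed estimates. CPEB1 PM02432 overlaps a model on the other strand. PABPC1 PM09906, a cytoplasmic poly(A) binding protein, had 1988 and 1961 CPM at day 3 and 429 and 407 CPM at day 2 (2.24, SE 0.046, adjusted p = 1.17e-08). PABPC1 PM07018 fell to 5.74 and 7.41 CPM at day 3, against 53.5 and 60.2 CPM at day 2 (-3.11, SE 0.12). The models sharing that symbol therefore went opposite ways, and both overlap a model on the other strand. PM07018 has 1 exon and 35.7% identity to the human protein, against 15 exons and 77.5% for PM09906, so its symbol is less certain. Among the readers of N6-methyladenosine, which mark messages for decay or storage, YTHDF2 PM09951 fell by 1.93 and YTHDF2 PM09267 was 0.75 higher, and among IGF2BP1 models PM08306 was 2.15 higher and PM05901 fell by 0.39.

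Other element binders and the small RNA pathway were mixed, with 6 higher and 6 lower of 16 and 2 higher and 2 lower of 5. The shares called were 75.0% and 80.0%, beside 66.1% of all genes tested. CELF2 PM07488, a binder of GU-rich elements, had 1063 and 1052 CPM at day 3 and 114 and 114 CPM at day 2 (3.21, SE 0.064). ELAVL4, a neuronal stabiliser of AU-rich messages, was 2.15 higher. DICER1, which cuts microRNA precursors, had 34.9 and 36.1 CPM at day 3 and 3.30 and 5.00 CPM at day 2 (3.10, SE 0.25), whereas DROSHA, which makes those precursors, fell by 0.40. CELF5 PM09612 was listed at 0 in both day 3 wildtype libraries, against 36 and 114 counts at day 2, CELF2 PM12893 was listed at 0 in all 6 day 3 libraries and LSM14A PM01468 in 5 of them. CELF4 PM20870 was listed at 0 in both day 3 KMT5A knockout libraries, against 25 and 24 counts in wildtype of that day and 440 and 499 counts in day 2 KMT5A knockouts. Such 0s can be failed estimates, so no fold is given.

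**Figure D2:**
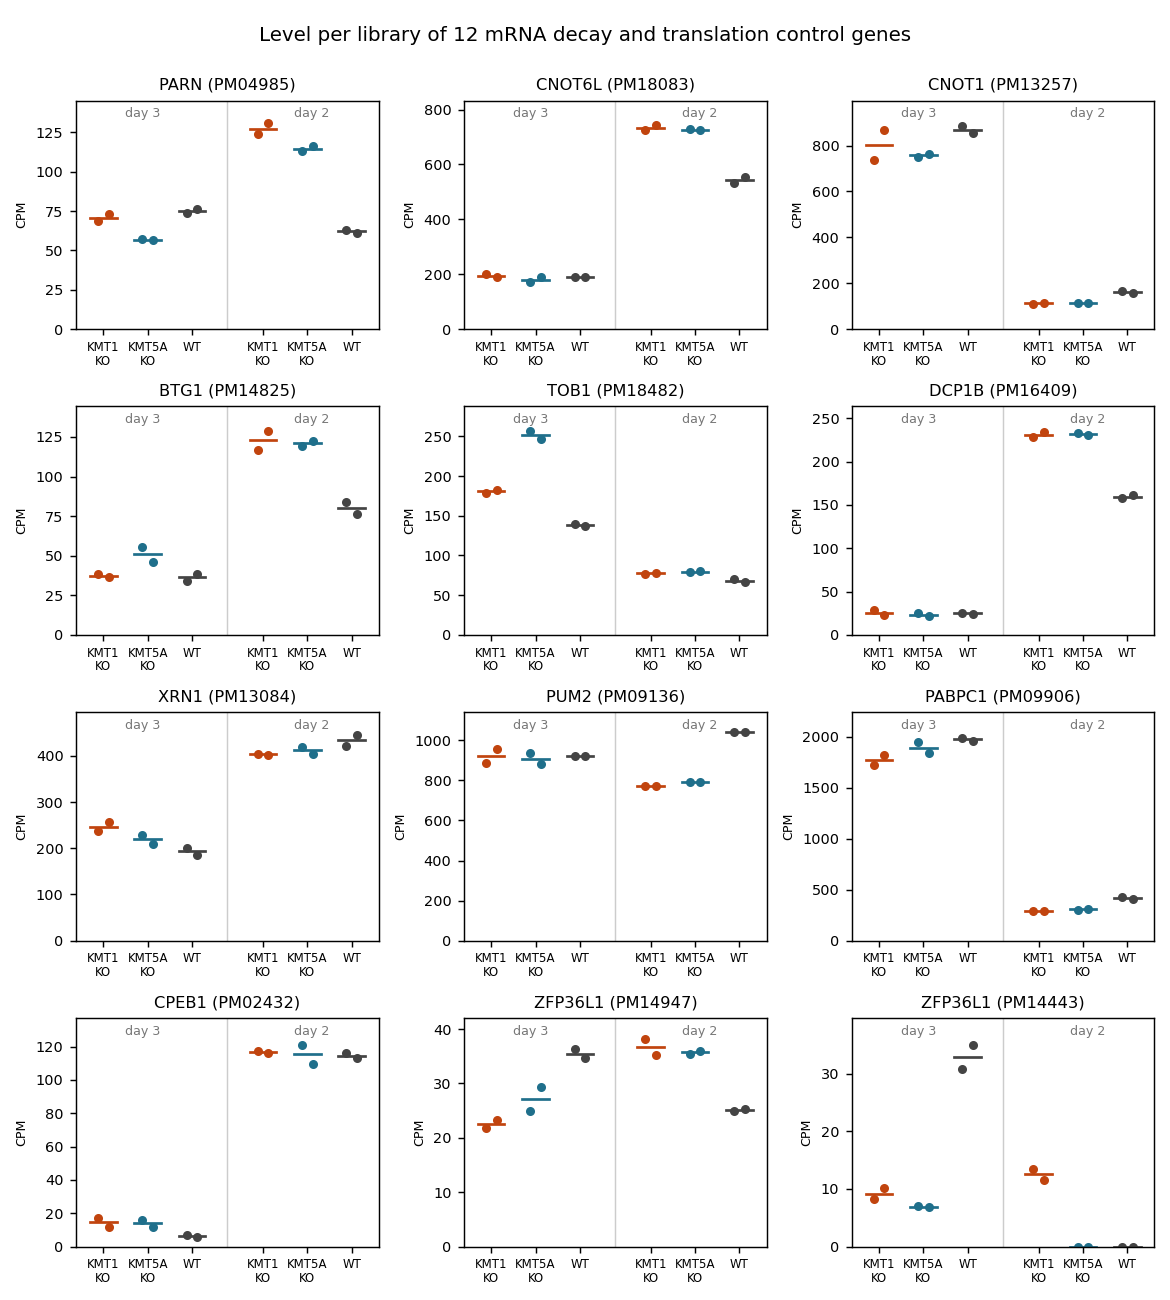
CPM per library (y axes, from 0) of 12 genes in the 6 groups (x axis), with 1 point per library and a line at the mean of the 2, knockouts left of wildtype and day 3 left of day 2. PARN stands above wildtype in all 4 day 2 knockout libraries, TOB1 above wildtype in all 4 day 3 knockout libraries, and ZFP36L1 PM14443 is listed at 0 in 4 of the 6 day 2 libraries.

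Both knockouts were set against the same wildtype libraries, so their values at a given day are shown side by side and are not independent of each other. At day 2, 25 of the 100 tested genes were called in KMT1 knockouts, 10 higher and 15 lower, when 9.97% of all genes tested were called, 3.18% higher and 6.79% lower. KMT5A knockouts had 26 called, 9 higher and 17 lower, when 9.07% of all genes tested were called, 2.64% higher and 6.43% lower. The shares of 25.0% and 26.0% were above those of all genes in both directions. The changes themselves were not larger than those of all genes. The median size of the log2 fold change, sign aside, was 0.2 and 0.19 over the 100 genes, and 0.22 and 0.21 over all genes tested. In all, 20 genes were called in both, which is 80.0% of the KMT1 list and 76.9% of the KMT5A list, out of 31 called in either. Median log2 fold changes were -0.10 in KMT1 and -0.09 in KMT5A knockouts over the 100 genes, and -0.02 and -0.03 over all genes tested. The split depended on scaling: with median-of-ratios factors it was 11 higher and 11 lower in KMT1 knockouts and 9 and 9 in KMT5A knockouts, and with library size alone 4 and 0, and 3 and 0. Without 1 library at a time the KMT1 count was 11 and 12 without wildtype replicates 1 and 2, and 12 and 9 without KMT1 knockout replicates 1 and 2. The KMT5A count was 12 and 7 without those wildtype replicates, 12 and 8 without KMT5A knockout replicates 1 and 2, and 16 without either day 3 wildtype library. In KMT1 knockouts 7 calls and in KMT5A knockouts 6 calls held whichever library was left out. The calls kept with library size alone were PARN, BTG1 PM14825 and SMG5 in both knockouts and ZFP36L1 PM14443 in KMT1 knockouts.

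**Figure D3:**
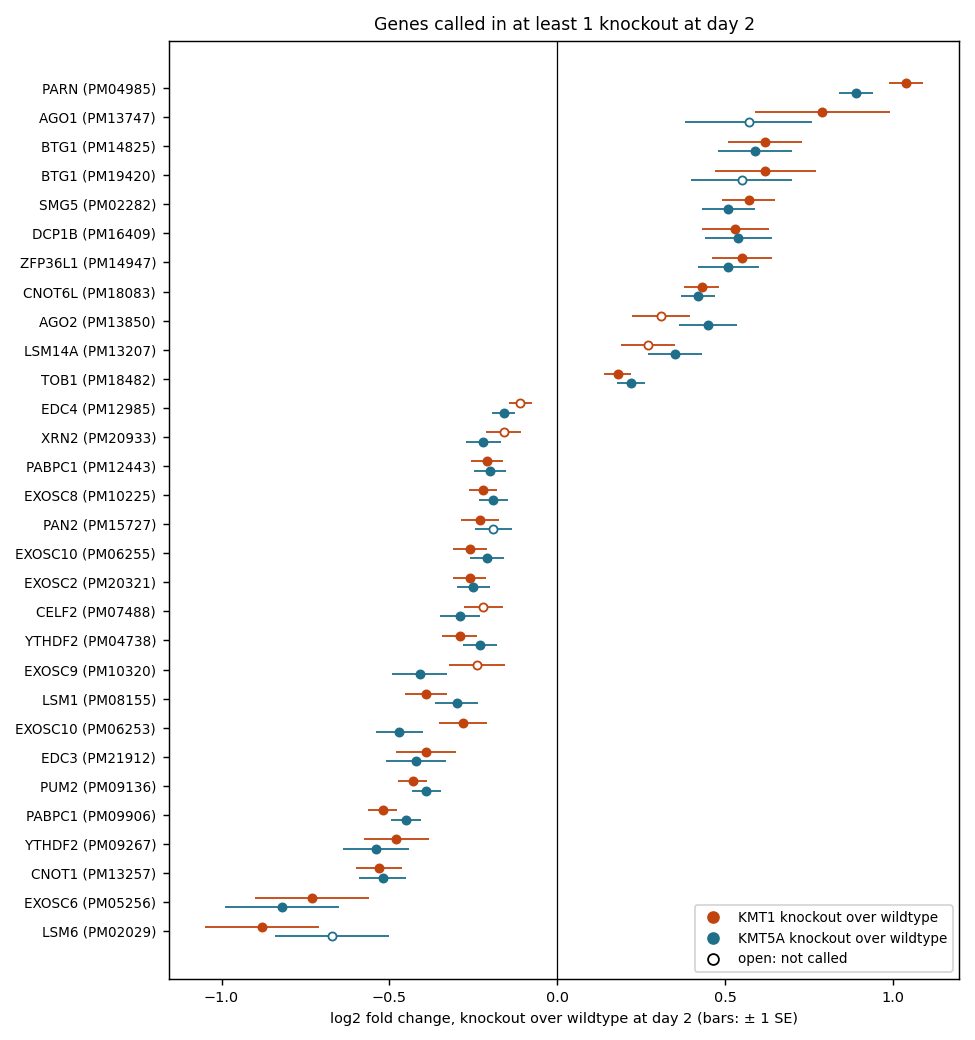
Log2 fold change of knockout over wildtype at day 2 (x axis, bars of 1 SE) for the 30 genes called in at least 1 knockout other than ZFP36L1 PM14443, whose wildtype is listed at 0; filled points are called and open points are not. PARN stands highest at 1.04 and 0.89, and LSM6 and EXOSC6 lowest, at -0.88 and -0.73 in KMT1 knockouts.

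PARN (PM04985, chromosome 3, 9626777 to 9657067, plus strand) was the clearest change at day 2. It had 124 and 131 CPM in KMT1 knockouts, 113 and 116 CPM in KMT5A knockouts and 63.0 and 61.1 CPM in wildtype. All 4 knockout libraries lay far above both wildtype libraries. Its log2 fold change was 1.04 (SE 0.051, adjusted p = 0.000183) in KMT1 knockouts, 2.05-fold, and 0.89 (SE 0.051, adjusted p = 0.000178) in KMT5A knockouts, 1.85-fold. Both calls held without any one of the 12 libraries, under the 3 scalings and with DESeq2 and limma voom. The deadenylase CNOT6L had 725 and 743 CPM in KMT1 knockouts, 729.5 and 725 CPM in KMT5A knockouts and 532 and 554 CPM in wildtype. These groups did not overlap either (0.43, SE 0.051, adjusted p = 0.00177; 0.42, SE 0.051, adjusted p = 0.00226). BTG1 PM14825 (chromosome 30, 12546045 to 12551128, plus strand), an adaptor that recruits CCR4-NOT nucleases, had 117 and 129 CPM in KMT1 knockouts, 119 and 123 CPM in KMT5A knockouts and 84.1 and 76.3 CPM in wildtype. Its log2 fold changes were 0.62 (SE 0.11, adjusted p = 0.0103) and 0.59 (SE 0.11, adjusted p = 0.0132), where the KMT1 call was lost without wildtype replicate 2 or KMT1 knockout replicate 2 (adjusted p = 0.0759 and 0.0778; 8.61e-07 to 0.0778 over all alternatives). The KMT5A call was lost without wildtype replicate 2 or either KMT5A knockout replicate (adjusted p = 0.0933, 0.056 and 0.0791; 2.91e-06 to 0.0933 over all alternatives). BTG1 PM19420 was called in KMT1 knockouts alone, at 0.62 against 0.55 in KMT5A knockouts, and TOB1 was higher by a small amount, 0.18 and 0.22. These last calls were lost without wildtype replicate 2 and at least 2 other libraries, with an adjusted p of up to 0.206 for BTG1 PM19420 and up to 0.192 and 0.0866 for TOB1.

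The scaffold CNOT1 moved in the opposite direction to these nucleases and adaptors. It had 110.3 and 115 CPM in KMT1 knockouts, 114 and 112 CPM in KMT5A knockouts and 165 and 159 CPM in wildtype, so every knockout library was below wildtype. The log2 fold changes were -0.53 (SE 0.069, adjusted p = 0.00307) and -0.52 (SE 0.069, adjusted p = 0.00356). PAN2 fell in KMT1 knockouts by 0.23, a call lost without 10 libraries in turn, and was -0.19 in KMT5A knockouts, where it was not called. Of 15 deadenylation genes 5 were higher and 2 lower in KMT1 knockouts, and 4 higher and 1 lower in KMT5A knockouts. The shares were 33.3% higher and 13.3% lower in KMT1 knockouts, beside 3.18% and 6.79% of all genes tested. In KMT5A knockouts they were 26.7% and 6.67%, beside 2.64% and 6.43% of all genes tested.

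Of 22 decapping genes tested, 1 was higher and 3 lower in KMT1 knockouts and 2 higher and 4 lower in KMT5A knockouts. The shares were 4.55% higher and 13.6% lower in KMT1 knockouts, beside 3.18% and 6.79% of all genes tested. In KMT5A knockouts they were 9.09% and 18.2%, beside 2.64% and 6.43% of all genes tested. DCP1B had 228 and 234 CPM in KMT1 knockouts, 233 and 231 CPM in KMT5A knockouts and 158 and 162 CPM in wildtype. It was higher in all 4 knockout libraries (0.53, SE 0.1, adjusted p = 0.0148; 0.54, SE 0.1, adjusted p = 0.0158), and each call was lost without any one of the 4 libraries compared (adjusted p up to 0.0986 and 0.103, which were also the highest over all alternatives). The tail-binding LSM1 was lower (-0.39 and -0.30), as was the decapping enhancer EDC3 (-0.39 and -0.42), which overlaps 2 models on the other strand. LSM6 fell by 0.88 in KMT1 knockouts and was -0.67 in KMT5A knockouts, not called, from a low level of 6.05 and 5.84 CPM in wildtype. The LSM1, EDC3 and LSM6 calls were each lost without wildtype replicate 1 and at least 1 other library in turn (adjusted p up to 0.19 in KMT1 and 0.164 in KMT5A knockouts). EDC4 and XRN2 were called as lower in KMT5A knockouts alone, at -0.16 and -0.22, against -0.11 and -0.16 in KMT1 knockouts, and each of these calls was lost on leaving out any of 11 of the 12 libraries. LSM14A PM13207 was 0.35 in KMT5A knockouts and 0.27, not called, in KMT1 knockouts, and its call was lost without 6 libraries in turn.

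All 12 exosome gene models had a log2 fold change below 0 at day 2 in both knockouts under each of the 3 scalings. The knockouts share their wildtype libraries and the scalings use the same counts, so these repeats are not independent. In KMT1 knockouts 5 were called as lower and in KMT5A knockouts 6, with none called as higher. Of all genes tested 6.79% and 6.43% were called as lower. The 12 include the 3 neighbouring EXOSC10 models, which may share reads, and PM06253 and PM06255 are among the calls in both knockouts. The calls of PM06253 in KMT1 and PM06255 in KMT5A knockouts were lost without each of the 12 libraries in turn. The median log2 fold change of the 12 was -0.23 in each knockout, beside -0.02 in KMT1 and -0.03 in KMT5A knockouts over all genes tested. With median-of-ratios factors 3 were called in each knockout, and with the 4 compared libraries alone 0 in KMT1 and 1 in KMT5A knockouts (edgeR; 5 and 10 at an unadjusted p under 0.05), while over all groups DESeq2 called 6 and 6 and limma voom 5 and 7. EXOSC6 had 4.44 and 5.58 CPM in KMT1 knockouts, 5.17 and 4.25 CPM in KMT5A knockouts and 9.20 and 7.45 CPM in wildtype, the lowest level and largest change of the group (-0.73, SE 0.17, adjusted p = 0.0324; -0.82, SE 0.17, adjusted p = 0.0226). EXOSC2 was -0.26 and -0.25, EXOSC8 -0.22 and -0.19, and EXOSC10 PM06253 -0.28 and -0.47. The EXOSC6 call was lost without 5 of the libraries in turn in KMT1 knockouts and without wildtype replicate 1 or KMT5A knockout replicate 2 in KMT5A knockouts (adjusted p up to 0.191 and 0.148, also the highest over all alternatives). The EXOSC2 call was lost without 3 libraries in turn in each knockout. That of EXOSC8 was lost without 5 libraries in turn in KMT1 knockouts and without 11 of the 12 in KMT5A knockouts. EXOSC10 PM06253 in KMT5A knockouts was the sole exosome call to hold without any one library, and with library size alone no exosome gene was called in either knockout (edgeR, with the 12 log2 fold changes still below 0 and a median of -0.16). Among nonsense-mediated decay genes SMG5, a factor that recruits decapping or deadenylation to faulty messages, had 66.6 and 67.4 CPM in KMT1 knockouts, 68.0 and 60.6 CPM in KMT5A knockouts and 46.0 and 44.0 CPM in wildtype. It was the sole call of 9 genes in that role, 11.1% in each knockout, beside 9.97% and 9.07% of all genes tested. The SMG5 knockout and wildtype groups did not overlap (0.57, SE 0.078, adjusted p = 0.00357 in KMT1 and 0.51, SE 0.078, adjusted p = 0.00625 in KMT5A knockouts). Its KMT5A call was lost without wildtype replicate 2 (adjusted p = 0.0514; 2.79e-10 to 0.0514 over all alternatives).

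The binder PUM2 (PM09136, chromosome 12, 10213739 to 10234793, plus strand), which recruits CCR4-NOT to messages with Pumilio elements, had 772 and 772 CPM in KMT1 knockouts, 793 and 791 CPM in KMT5A knockouts and 1042 and 1038 CPM in wildtype. The 4 knockout libraries were within a narrow range below both wildtype libraries. Its log2 fold changes were -0.43 (SE 0.043, adjusted p = 0.000951) and -0.39 (SE 0.043, adjusted p = 0.00145), and they held without any one library. PABPC1 PM09906 had 294 and 291 CPM in KMT1 knockouts, 304 and 309 CPM in KMT5A knockouts and 429 and 407 CPM in wildtype. It too was lower in all 4 knockout libraries (-0.52, SE 0.044, adjusted p = 0.000512; -0.45, SE 0.044, adjusted p = 0.000911), and PABPC1 PM12443 fell by 0.21 and 0.20. YTHDF2 PM09267, a reader that brings methylated messages to CCR4-NOT, had 45.8 and 46.4 CPM in KMT1 knockouts, 48.6 and 40.0 CPM in KMT5A knockouts and 63.1 and 65.2 CPM in wildtype. It was lower in each knockout library (-0.48 and -0.54), as was PM04738 (-0.29 and -0.23), while PM09951 was not called (0.01 and -0.08). The YTHDF2 and PABPC1 PM12443 calls were each lost without 3 or more libraries in turn, among them a day 2 wildtype library (adjusted p up to 0.257). The 2 Argonaute calls each came from 1 knockout: AGO1 was 0.79 in KMT1 knockouts (adjusted p = 0.0439) and 0.57 in KMT5A knockouts (adjusted p = 0.134), and AGO2 PM13850 was 0.31 (adjusted p = 0.0637) and 0.45 (adjusted p = 0.0165). The AGO1 call was lost without 10 libraries in turn and the AGO2 call without wildtype replicate 2 or either KMT5A knockout replicate (adjusted p up to 0.202 and 0.108 there, 7.12e-05 to 0.209 and 6.03e-07 to 0.137 over all alternatives).

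The zinc finger gene ZFP36L1, which binds AU-rich elements and recruits CCR4-NOT, was carried by 3 models that behaved differently. PM14443 (chromosome 29, 7260909 to 7272769, minus strand) had 1300 and 1139 counts in day 2 KMT1 knockouts and was listed at 0 in all 4 day 2 libraries of KMT5A knockouts and wildtype, so no fold is given (adjusted p = 0.000183, held without any one library). These 0s can be failed estimates, which leaving out 1 library at a time cannot show. At day 3 it had 8.24 and 10.1 CPM in KMT1 knockouts, 6.96 and 6.94 CPM in KMT5A knockouts and 30.9 and 35.0 CPM in wildtype. At day 2 both KMT1 knockout libraries had counts and the other 4 were at 0, and at day 3 all 4 knockout libraries were below wildtype. PM14947 (chromosome 31, 3775815 to 3857697, minus strand) had 38.1 and 35.3 CPM in KMT1 knockouts, 35.5 and 36.0 CPM in KMT5A knockouts and 24.9 and 25.3 CPM in wildtype at day 2 (0.55 and 0.51). Its call was lost without wildtype replicate 1 or KMT1 knockout replicate 1 in KMT1 knockouts and without any of the 4 libraries compared in KMT5A knockouts (adjusted p up to 0.0616 and 0.0851). PM06804 was not called in any knockout comparison (-0.15 and -0.05 at day 2).

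Each day 2 effect was also set beside the change between days in embryos of the opposite knockout, where none of the libraries is shared. Of 10 genes higher in day 2 KMT1 knockouts 7 were lower at day 3 than day 2 in KMT5A knockouts, and of 15 lower 14 were higher at day 3. Over all genes called the shares were 70.2% and 92.6%. Of 9 genes higher in day 2 KMT5A knockouts 8 were lower at day 3 in KMT1 knockouts, and of 17 lower all 17 were higher at day 3, with 73.8% and 94.7% over all genes called. The shares of the genes described here were 70.0% and 93.3% for the KMT1 effect and 88.9% and 100.0% for the KMT5A effect. A shift shared by both knockouts at day 2 enters the 2 sides with opposite signs, and its part in these shares was not tested.

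At day 3 fewer genes were called. KMT1 knockouts had 5 of 100, 3 higher and 2 lower, when 6.26% of all genes tested were called, 4.67% higher and 1.59% lower, and KMT5A knockouts had 11, 6 higher and 5 lower, when 5.3% of all genes tested were called, 3.33% higher and 1.97% lower. The KMT1 share was near that of all genes and the KMT5A share about 2 times it. The median size of the log2 fold change, sign aside, was 0.12 and 0.14 over the 100 genes, below the 0.2 over all genes tested. In all, 3 genes (TOB1, CPEB1 PM02432 and ZFP36L1 PM14443) were called in both, which is 60.0% of the KMT1 list and 27.3% of the KMT5A list. These calls rest on the spread estimated over all 6 groups: with the 4 compared libraries alone edgeR called none of the genes in either knockout (21 and 18 at an unadjusted p under 0.05, and 1 and 2 calls over all genes), while over all groups DESeq2 called 18 and 21 and limma voom 8 and 7. With library size as the sole scaling the splits were 0 higher and 1 lower in KMT1 knockouts and 1 higher and 4 lower in KMT5A knockouts, where the median of all genes moved to -0.13. The calls kept with it were ZFP36L1 PM14443 in both knockouts and CNOT2, CELF2 PM11839, PARN and TOB1 in KMT5A knockouts. The KMT1 count was 3 without wildtype replicate 2, 8 and 10 without KMT1 knockout replicates 1 and 2, 9 without either KMT5A knockout library, and 15 without both libraries rich in 1 gene. The KMT5A count was 6 without either wildtype library or KMT5A knockout replicate 1, 18 without KMT5A knockout replicate 2, and 7 without any one day 2 library of wildtype or KMT1 knockouts.

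TOB1 (PM18482, chromosome 43, 4169656 to 4176439, minus strand) was higher in both knockouts at day 3. It had 178 and 183 CPM in KMT1 knockouts, 257 and 247 CPM in KMT5A knockouts and 140.2 and 138 CPM in wildtype. The 3 genotypes did not overlap, with KMT5A knockouts the highest. The log2 fold changes were 0.38 (SE 0.041, adjusted p = 0.0024) and 0.86 (SE 0.042, adjusted p = 5.02e-05), and both calls held without any one library. CPEB1 PM02432 had 17.3 and 11.6 CPM in KMT1 knockouts, 15.8 and 11.9 CPM in KMT5A knockouts and 7.21 and 6.0 CPM in wildtype. All 4 knockout libraries were above wildtype, although all 6 were far below the 116 and 113 CPM of day 2 wildtype. The log2 fold changes were 1.13 (SE 0.2, adjusted p = 0.0179) and 1.07 (SE 0.2, adjusted p = 0.0249), and the KMT1 call was lost without wildtype replicate 1 or 2 (adjusted p = 0.056 and 0.119; 1.36e-07 to 0.175 over all alternatives). The KMT5A call was lost without 7 of the libraries in turn (adjusted p up to 0.166; 6.09e-07 to 0.176 over all alternatives). The second CPEB1 model, PM20837, was 0.38 and 0.51 and was not called.

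The falls at day 3 were led by ZFP36L1 PM14443, at -1.85 (SE 0.17, adjusted p = 0.00361) in KMT1 knockouts and -2.24 (SE 0.17, adjusted p = 0.00186) in KMT5A knockouts, 3.59-fold and 4.74-fold lower. ZFP36L1 PM14947 had 21.8 and 23.2 CPM in KMT1 knockouts, 25.0 and 29.3 CPM in KMT5A knockouts and 36.3 and 34.7 CPM in wildtype. It was below wildtype in all 4 knockout libraries, with -0.66 (SE 0.091, adjusted p = 0.00615) in KMT1 knockouts and -0.39 (SE 0.09, adjusted p = 0.0526), not called, in KMT5A knockouts. XRN1 had 237 and 256 CPM in KMT1 knockouts, 229 and 209 CPM in KMT5A knockouts and 201 and 185 CPM in wildtype. It was higher in KMT1 knockouts (0.35, SE 0.064, adjusted p = 0.0189; not called without wildtype replicate 2, adjusted p = 0.073; 3.75e-05 to 0.17 over all alternatives) and not called in KMT5A knockouts (0.18).

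KMT5A knockouts had further calls at day 3. CNOT2 (PM11715, chromosome 21, 3476227 to 3489502, minus strand), a structural subunit of CCR4-NOT, had 61.8 and 60.0 CPM in KMT5A knockouts and 109.6 and 103 CPM in wildtype, with 98.3 and 103 CPM in KMT1 knockouts. CELF2 PM11839 (chromosome 21, 6603127 to 6660375, plus strand) had 366 and 360.0 CPM in KMT5A knockouts and 681 and 681 CPM in wildtype, with 626 and 681 CPM in KMT1 knockouts. For both genes the 2 KMT5A knockout libraries lay below the other 4 day 3 libraries, at -0.80 (SE 0.057, adjusted p = 0.000311) and -0.91 (SE 0.05, adjusted p = 9.79e-05). These were the sole 2 of the 104 genes on chromosome 21, which also carries KMT5A, 8.47 and 5.3 megabases from it. Of 251 genes tested on chromosome 21, 74 (29.5%) were called as lower and 4 as higher in day 3 KMT5A knockouts, with a median log2 fold change of -0.45. Of all genes tested 1.97% were called as lower in that comparison. At day 2 the same chromosome had 33 lower (13.1%), beside 6.43% of all genes tested, and a median of -0.10. The values of the 2 genes therefore cannot be told apart from those of their chromosome.

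PARN fell to 57.2 and 56.5 CPM in day 3 KMT5A knockouts, against 73.5 and 76.5 CPM in wildtype (-0.40, SE 0.051, adjusted p = 0.00476), and had 68.5 and 73.2 CPM in KMT1 knockouts (-0.08, not called). EDC4 fell by 0.24 in KMT5A knockouts, a call lost without wildtype replicate 1 (adjusted p = 0.0514; 2.67e-06 to 0.158 over all alternatives). LSM1, PATL1, YTHDF2 PM09951 and BTG1 PM14825 were higher in KMT5A knockouts by 0.29, 0.42, 0.42 and 0.48. Each of these 4 calls was lost without at least 5 of the 12 libraries in turn, and none held without the pair of libraries rich in 1 gene. No exosome gene was called in either knockout at day 3 by edgeR, DESeq2 or limma voom (1 in KMT1 and 0 in KMT5A knockouts at an unadjusted p under 0.05 in edgeR).

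Whether the knockout effect itself differed between the days was tested as the effect at day 3 minus the effect at day 2. In KMT1 knockouts 18 of 100 genes differed, 12 with a positive and 6 with a negative difference, when 10.2% of all genes tested were called, 7.3% positive and 2.91% negative. In KMT5A knockouts 16 differed, 8 each way, when 9.65% of all genes tested were called, 6.47% positive and 3.18% negative. The median size of the difference, sign aside, was 0.28 in KMT1 and 0.26 in KMT5A knockouts over the 100 genes. Over all genes tested it was 0.38 in each. In all, 8 genes were called in both, which is 44.4% of the KMT1 list and 50% of the KMT5A list. With median-of-ratios factors the KMT1 split was 5 positive and 6 negative, and with library size alone it was 0 and 3, with 0 and 4 in KMT5A knockouts. The KMT1 count was 7 without either day 2 wildtype library, 9 and 6 without day 2 KMT1 knockout replicates 1 and 2, and 8 without day 3 wildtype replicate 2. The KMT5A count was 10 without day 2 wildtype replicate 2 or day 2 KMT5A knockout replicate 2, and 9 without day 3 wildtype replicate 2.

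**Figure D4:**
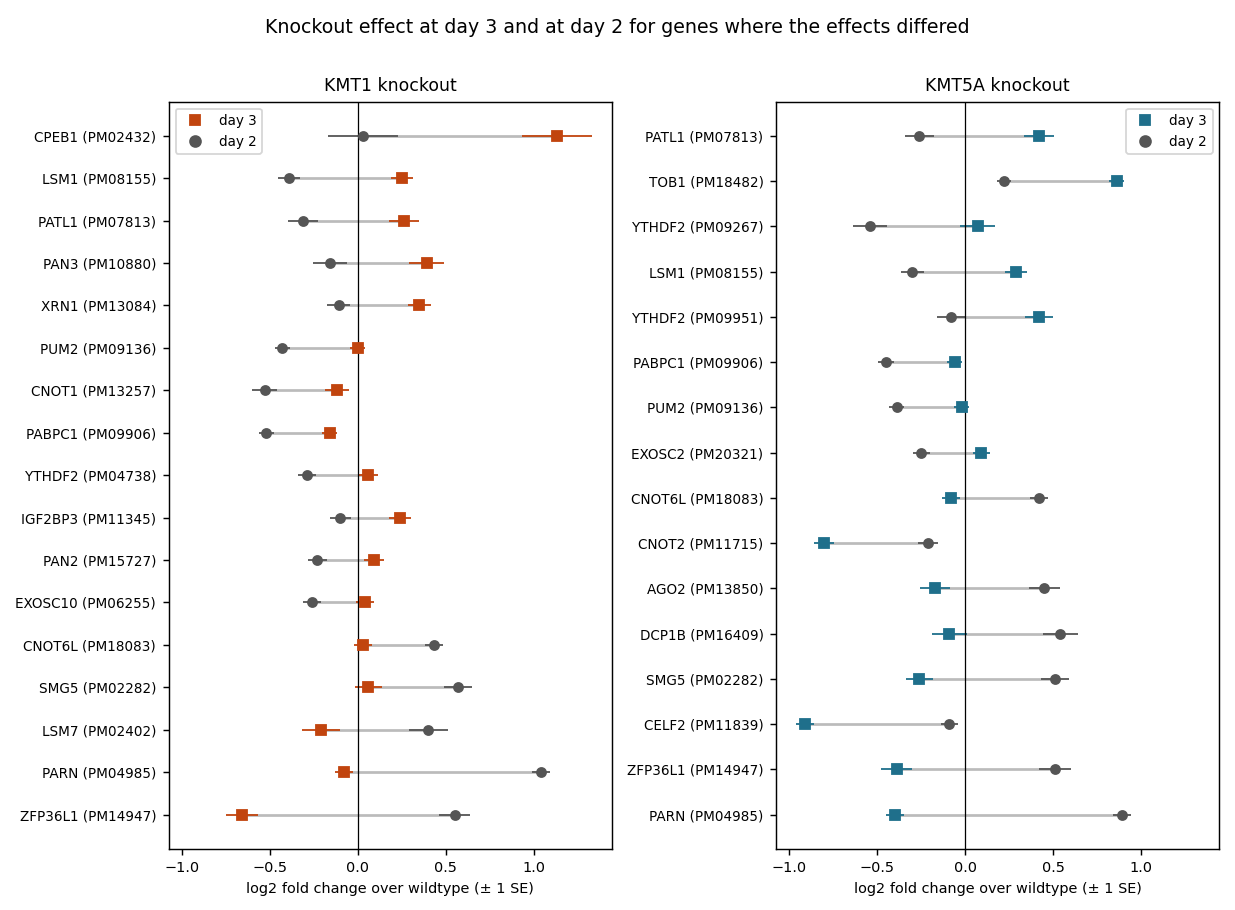
Log2 fold change over wildtype (x axis, bars of 1 SE) at day 3 (squares) and day 2 (circles) for each gene whose effect differed between the days, with 17 genes in KMT1 knockouts (left; ZFP36L1 PM14443 is left out because day 2 wildtype is listed at 0) and 16 in KMT5A knockouts (right). PARN and ZFP36L1 PM14947 lie below 0 at day 3 and above 0 at day 2 in both panels.

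PARN had the largest difference of the genes with counts in all groups in KMT5A knockouts, -1.28 (SE 0.072, adjusted p = 0.000205), and -1.12 (SE 0.072, adjusted p = 0.000418) in KMT1 knockouts. It was above wildtype at day 2 in both knockouts and above it in neither at day 3. ZFP36L1 PM14947 was above wildtype at day 2 and below it at day 3, a difference of -1.21 (SE 0.13, adjusted p = 0.00232) in KMT1 knockouts and -0.90 (SE 0.13, adjusted p = 0.00597) in KMT5A knockouts. CNOT6L and SMG5 likewise had their excess at day 2 alone, with differences of -0.40 and -0.50 for CNOT6L and -0.52 and -0.77 for SMG5. PUM2 and PABPC1 PM09906 were below wildtype at day 2 and not called at day 3 (0.00 and -0.02 for PUM2, -0.16 and -0.06 for PABPC1), with differences of 0.43 and 0.37, and 0.36 and 0.39. Log2 fold changes were below 0 at day 2 and above 0 at day 3 in both knockouts for LSM1 (differences of 0.64 and 0.59) and PATL1 (differences of 0.57 and 0.67), partners in binding shortened tails before decapping. The PABPC1 differences were lost without day 2 KMT1 knockout replicate 2 and without day 3 wildtype replicate 2 (adjusted p = 0.0522 and 0.0511; 0.000296 to 0.469 and 2.73e-05 to 0.708 over all alternatives). Those of CNOT6L and SMG5 held in KMT5A knockouts and were lost without 3 and 6 libraries in turn in KMT1 knockouts. That of LSM1 held in KMT1 knockouts and was lost without day 3 wildtype replicate 2 in KMT5A knockouts (adjusted p = 0.0529; 6.03e-08 to 0.329 over all alternatives), and both PATL1 differences were lost without that library, among others. The difference of TOB1 was called in KMT5A knockouts (0.64, SE 0.059, adjusted p = 0.0012).

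From a wider list of 130 symbols of the same pathway that the choice by symbol did not take in, 87 were found in 120 gene models, of which 119 were tested. This list too was chosen with earlier results of these data known, so its shares are not independent support for those above. At day 2, 5 were higher and 27 lower in KMT1 knockouts, and 5 higher and 26 lower in KMT5A knockouts, and at day 3, 3 and 2, and 2 and 5. The day 2 shares called were 26.9% and 26.1%, beside the 9.97% and 9.07% of all genes tested, and the day 3 shares 4.2% and 5.88%, beside 6.26% and 5.3%. At day 2 the median size of the log2 fold change was 0.23 and 0.26 over the list, and 0.22 and 0.21 over all genes tested. The day 2 KMT1 count of 32 was 13 without either day 2 wildtype library and 14 and 12 without KMT1 knockout replicates 1 and 2. The day 2 KMT5A count of 31 was 12 and 15 without wildtype replicates 1 and 2, 15 and 12 without KMT5A knockout replicates 1 and 2, and 20 without either day 3 wildtype library. With median-of-ratios factors the day 2 splits were 6 higher and 16 lower in KMT1 knockouts and 7 and 18 in KMT5A knockouts. Leaving out 1 library at a time the day 3 counts were 1 to 12 in KMT1 knockouts, with 1 without either day 3 wildtype library and 12 without KMT1 knockout replicate 2. In KMT5A knockouts they were 1 to 19, with 1 without wildtype replicate 1 or KMT5A knockout replicate 1 and 19 without KMT5A knockout replicate 2, so single day 3 calls of this list rest on few libraries. The genes named next are examples of its calls, and the naming rule given below does not cover this list. TENT4A, a poly(A) polymerase that adds mixed tails, had log2 fold changes of 0.79 in KMT1 and 0.61 in KMT5A knockouts at day 2. UNK PM17066 rose more in KMT1 knockouts, by 0.94. The cap-binding EIF4E was -0.35 and -0.33, and TENT2, the cytoplasmic poly(A) polymerase that works with CPEB1, -0.69 and -0.61. At day 3 ZAR1, which binds stored maternal messages, was 0.44 and 0.42 higher, and the stem cell factor TRIM71 was -0.78 and -0.77. The day 3 calls include genes on the chromosomes of the target genes, where falls were frequent. They are RBM15 on chromosome 14 (-0.65 in KMT1 knockouts) and EIF4G2 on chromosome 21 (-0.82 in KMT5A knockouts). In wildtype 72 of the list were higher and 25 lower at day 3 than at day 2. The share called was 81.5%, beside 66.1% of all genes tested (29.0% higher and 37.0% lower). With library size as the sole scaling the day 2 counts of the list were 1 and 0 in KMT1 knockouts and 0 and 1 in KMT5A knockouts.

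The replicates of day 3 KMT5A knockouts differed for most of the described genes that lie on unplaced or unlocalised sequences. Over the 10 genes on unplaced or unlocalised sequences with at least 50 counts in both libraries, the median log2 ratio of replicate 1 over replicate 2 was -0.89, against 0.06 over 82 genes on placed chromosomes. In wildtype of that day the medians were -0.03 and 0.02, and in KMT1 knockouts 0.24 and -0.04. MSI2 had 13.6 CPM in replicate 1 and 39.5 CPM in replicate 2, TUT4 12.9 and 32.4 CPM, ELAVL1 12.3 and 26.5 CPM, and TUT7 8.03 and 16.4 CPM. In all, 7 of the 10 genes had a ratio below -0.5, when 22.7% of all genes on such sequences and 8.11% on placed chromosomes did. PATL1 (-0.02), DROSHA (-0.13) and CELF2 PM07488 (-0.20) did not. The median over all 1249 genes on such sequences was -0.09 in day 3 KMT5A knockouts, and 0.03 over 9637 genes on placed chromosomes. Most genes on such sequences thus did not share the shift. This split was looked at after the values were seen and has no test; replicate 1 is the library in which 1 gene held 7.82% of counts. None of these 4 genes was called in KMT5A knockouts at day 3, where their log2 fold changes were -0.34 for MSI2, -0.45 for TUT4, -0.20 for ELAVL1 and -0.56 for TUT7.

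**Figure D5:**
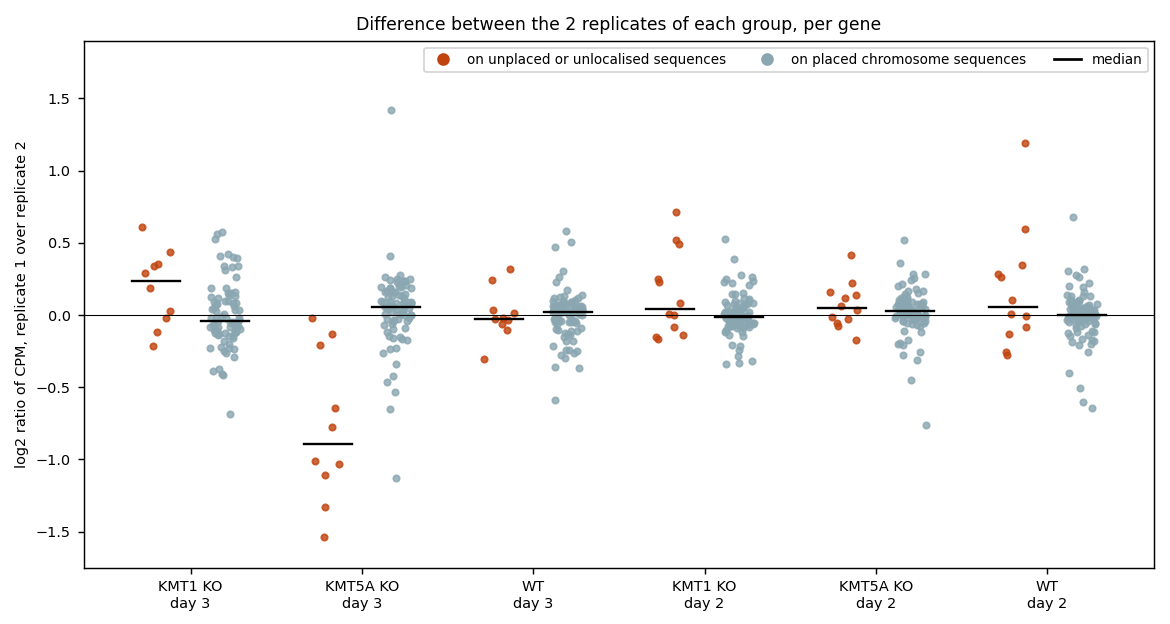
Log2 ratio of CPM in replicate 1 over replicate 2 (y axis) in each group (x axis) for tested genes with at least 50 counts in both libraries, split into genes on unplaced or unlocalised sequences (left of each pair) and on placed chromosomes (right), with a line at each median. The 10 genes on unplaced sequences in day 3 KMT5A knockouts have a median of -0.89, and every other median lies between -0.04 and 0.24.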

How the data were processed

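RNA of whole embryos was sequenced through a commercial mRNA pipeline, per the labels' protocols, and all 12 libraries were used, grouped by title into 6 groups of 2 pools. The authors deposited a table of estimated counts, whole numbers that the labels describe as raw. They were treated as estimates since 8 to 29 genes a library held 1 to 3 counts and 7129 to 10076 held 0, and since 299 to 786 genes in each group had no count in 1 replicate and 50 or more in its partner. An exact 0 may therefore be a failed estimate. HISAT2 2.2.1, StringTie 2.2.3 and DESeq2 1.42.1 are named in the submitters' processing notes, without role or order. The genome build and strand setting are not given in the sources used here, and coordinates are those of the deposited annotation. Of the genes, 27 overlap a model on the other strand and 1 on the same strand.

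Counts were tested with edgeR 4.0.16 in R 4.3.3, using the quasi-likelihood F test in 1 model over 6 groups with 6 residual degrees of freedom, TMM scaling and the default filter on low counts. P-values were adjusted by Benjamini-Hochberg over the 15615 genes tested, at a threshold of 0.05. The procedure was first run on counts simulated from its own fitted means and spreads, which cannot show if its assumptions hold for these data. limma 3.58.1 and DESeq2 1.42.0 served for alternatives, and Python 3.11.15, pandas 2.3.3 and matplotlib 3.10.9 for summaries. CPM values use TMM-scaled library sizes, and SE is the size of the log2 fold change divided by the root of F. Genes could be named if called in a knockout comparison or a difference between days, if among the 8 largest rises or falls between days, if listed at 0 in 1 group and at 50 or more counts in both libraries of another, or if on a list of 56 symbols. The genes and lists were chosen with earlier results of these data known. Alternatives covered scaling, filters, tools, the libraries in the fit, the replicate number as a block, and leaving out each library.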

Additional observations from a re-analysis of the deposited data

Results flagged for a closer look

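The knockout effect of 34 gene and knockout pairs differed between the days by a test of the difference itself (effect at day 3 minus effect at day 2, edgeR, p adjusted over all 15615 genes), with groups of 2 libraries. In KMT1 knockouts the adjusted p was 0.000111 for ZFP36L1 PM14443, 0.000418 for PARN, 0.00232 for ZFP36L1 PM14947, 0.00532 for LSM1 and 0.00546 for PUM2, and these 5 calls held without any one library. For ZFP36L1 PM14443 the difference rests on the 0s of day 2 wildtype, which can be failed estimates. For the genes that follow, the adjusted p is again that of the difference in KMT1 knockouts. It was 0.0108 for PABPC1 PM09906, 0.0124 for CNOT6L, 0.0185 for XRN1, 0.023 for YTHDF2 PM04738, 0.0236 for PATL1, 0.0245 for SMG5 and 0.0356 for EXOSC10 PM06255, and each of these 7 was lost without 1 to 9 of the 12 libraries in turn. It was 0.0371 for CNOT1, 0.0428 for PAN2, 0.0435 for LSM7 PM02402, 0.0455 for PAN3, 0.0471 for CPEB1 PM02432 and 0.0491 for IGF2BP3, and each of these 6 was lost without at least 7 of the 12 libraries in turn.

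In KMT5A knockouts the adjusted p was 0.000205 for PARN, 0.000962 for CELF2 PM11839, 0.0012 for TOB1, 0.00512 for CNOT2, 0.00597 for ZFP36L1 PM14947, 0.00616 for CNOT6L, 0.00616 for SMG5 and 0.0103 for PUM2, and these 8 calls held without any one library. It was 0.00757 for LSM1, 0.00913 for PABPC1 PM09906, 0.0137 for PATL1, 0.0192 for AGO2 PM13850 and 0.023 for EXOSC2, and each of these 5 was lost without 1 to 6 libraries in turn. It was 0.0299 for YTHDF2 PM09951, 0.0333 for YTHDF2 PM09267 and 0.0352 for DCP1B, and each of these 3 was lost without 9 of the 12 libraries in turn (adjusted p up to 0.173, 0.139 and 0.124, and up to 0.574, 0.476 and 0.124 over all alternatives). Groups of 2 libraries are too small for a check of single outlying samples.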

How the results depend on the processing

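The counts of genes called between days kept within 1.5 times under all alternatives, and the knockout counts did not. With library size as the sole scaling, 4 genes were called in KMT1 and 3 in KMT5A knockouts at day 2, 1 and 5 at day 3, and 3 and 4 for the difference between days. PARN and EDC4 turned to -0.04 and -0.02 in wildtype day 3 over day 2 under that scaling. DESeq2 called 18 and 21 at day 3 and 32 and 36 for the difference, and limma voom 8 and 7 at day 3. With the 4 compared libraries alone, 0 and 0 were called at day 3. Without both libraries rich in 1 gene, 15 were called in KMT1 knockouts at day 3. Median-of-ratios factors gave 11 for the KMT1 difference. The causes were not tested beyond what each alternative changes.

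Leaving out 1 library at a time gave 9 to 26 calls in KMT1 and 7 to 25 in KMT5A knockouts at day 2, 3 to 10 and 6 to 18 at day 3, and 6 to 20 and 9 to 24 for the difference. For day 3 over day 2 it gave 77 to 84 in KMT1 knockouts, 79 to 85 in KMT5A knockouts and 79 to 86 in wildtype; the lone library left in a group is then assumed to vary like the other groups. Libraries with the same replicate number did not deviate together (r from -0.24 to 0.1 over 15 pairs of groups). No pairing by number was thus seen, but with 2 replicates a group this check cannot exclude one. With the replicate number as a block, 17 and 25 genes were called at day 2, 6 and 9 at day 3, and 13 and 17 for the difference.

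With 2 pools a group, small differences were not detectable, and low or 0 counts carry estimation error that replicates of 2 cannot measure.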
